A study of Mus musculus with 38 samples.

Results

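The 10 genes described here carry the last steps of sugar and protein digestion on the small intestinal surface and the uptake of the products. They were Lct, Sis, Mgam, Treh, Slc5a1, Slc2a2, Slc2a5, Anpep, Dpp4 and Slc15a1, chosen by symbol from the 21441 genes in each of 3 deposited expression tables (villi, crypts and colon), and all 10 symbols had a row in every table. The mice were wild type C57BL6/J, were all vitamin D deficient, and received by intraperitoneal injection either 1,25(OH)2D3, the active hormone made from vitamin D, at 10 ng per g body weight, or 0.1 ml of the propylene glycol and ethanol vehicle. Tissue was taken 4 h later, and the labels give ages of 10 to 13.3 weeks in one field and of 12 to 14 weeks in another, for males and females pooled. There were 7 vitamin D and 6 vehicle libraries from villi, 6 and 6 from crypts, and 7 and 6 from colon. Villi and crypts came from the proximal small intestine after EDTA and a 70 µm filter, and colon was scraped with a glass slide. How many mice went into a library is not given, and p-values therefore measure the spread between these libraries, which may in part be technical.

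Starch and table sugars reach the small intestine as short chains and disaccharides, and membrane-bound hydrolases on the microvilli split them to single sugars: lactase (Lct) cuts lactose, sucrase-isomaltase (Sis) and maltase-glucoamylase (Mgam) cut sucrose and starch fragments, and trehalase (Treh) cuts trehalose. Glucose and galactose enter with sodium through SGLT1 (Slc5a1), fructose enters through GLUT5 (Slc2a5), and GLUT2 (Slc2a2) passes sugars on, chiefly across the basolateral membrane. The peptidases aminopeptidase N (Anpep) and dipeptidyl peptidase 4 (Dpp4) trim peptides at the surface, and PEPT1 (Slc15a1) takes up di- and tripeptides with protons. Enterocytes switch these genes on as they leave the crypt and climb the villus, and CDX2, HNF4 and GATA4 are known regulators of several of them.

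The promoters of the 10 genes were searched for the letters of these factors, because the genes varied together between crypt libraries, as described further on. The sequences are RefSeq's, on GRCm38.p6, and run from 250 bases before to 50 bases after the annotated start (300 bases); all 10 genes matched. Shown are Sis and Mgam, the genes nearest to the threshold in crypts, Lct, with the widest spread between crypt libraries, and Slc15a1, which lost the least between villi and colon. Capitals mark TTTAT, the core of a CDX site, and AGATAA, as bound by GATA factors, on either strand and with overlaps included.
Sis, chr3:72967814-72968113, minus strand: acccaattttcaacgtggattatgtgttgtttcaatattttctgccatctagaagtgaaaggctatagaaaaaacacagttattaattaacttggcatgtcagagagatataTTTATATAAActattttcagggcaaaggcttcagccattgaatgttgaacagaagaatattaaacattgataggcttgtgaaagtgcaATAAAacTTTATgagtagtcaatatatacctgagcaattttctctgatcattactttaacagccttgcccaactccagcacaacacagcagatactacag
Mgam, chr6:40628581-40628880, plus strand: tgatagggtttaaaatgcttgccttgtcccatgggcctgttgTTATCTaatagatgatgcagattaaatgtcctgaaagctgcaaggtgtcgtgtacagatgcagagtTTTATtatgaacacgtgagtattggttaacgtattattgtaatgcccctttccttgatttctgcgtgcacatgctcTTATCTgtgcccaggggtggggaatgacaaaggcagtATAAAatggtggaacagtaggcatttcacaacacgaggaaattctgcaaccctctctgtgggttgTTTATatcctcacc
Lct, chr1:128328269-128328568, minus strand: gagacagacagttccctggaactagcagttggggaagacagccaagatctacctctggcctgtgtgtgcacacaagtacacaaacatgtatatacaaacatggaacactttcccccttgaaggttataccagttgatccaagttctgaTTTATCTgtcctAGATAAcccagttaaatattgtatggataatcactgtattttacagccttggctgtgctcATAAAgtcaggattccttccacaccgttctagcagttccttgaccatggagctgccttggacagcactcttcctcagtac
Slc15a1, chr14:121505205-121505504, minus strand: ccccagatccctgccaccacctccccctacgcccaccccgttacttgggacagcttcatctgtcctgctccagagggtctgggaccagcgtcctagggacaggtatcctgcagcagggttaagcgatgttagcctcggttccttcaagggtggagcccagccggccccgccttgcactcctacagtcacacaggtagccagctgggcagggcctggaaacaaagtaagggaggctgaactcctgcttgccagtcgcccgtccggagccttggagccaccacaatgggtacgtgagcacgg

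The Sis promoter held 4 matches of TTTAT, and the Lct and Mgam promoters held 2 and 3 matches of TTTAT and 2 each of AGATAA, whereas the Slc15a1 promoter held none of these letters. TTTAT stood in 4 of the 10 promoters, against 40.9% of 27018 RefSeq promoters of the same length. AGATAA stood in 3 of 10 (Lct, Mgam and Dpp4), against 11.4%. CAAAGTNCA, letters of an HNF4 site, stood in the Treh promoter only, against 1.41% of all promoters. Direct repeats as bound by the vitamin D receptor, AGGTCA or GGTTCA with the same letters again after NNN, stood in 0 of the 10, against 0.0074% and 0.0037% of all promoters. Only 2 and 1 of the 27018 promoters held these exact letters, so 0 of 10 could hardly have come out otherwise. It does not show that sites of the receptor are absent. These are matches of letters in short windows, not measured binding.

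A library held 13.8 to 17.5 M reads (median 15.8 M), recovered from the steps between low values in FPKM, fragments scaled to transcript length and library size, the unit the authors deposited. Cyp24a1, the vitamin D degrading enzyme that the hormone induces, was higher after vitamin D in every tissue, by 10.53 (villi), 11.37 (crypts) and 9.10 (colon) on the log2(FPKM + 0.5) scale (limma, adjusted p = 1.53e-05, 6.47e-08 and 0.000274). Its lowest vitamin D library was at 403 FPKM, and its highest vehicle libraries were at 62.2 FPKM in villi and 64.7 FPKM in colon. Villin (Vil1), an epithelial brush border protein, averaged 1392 ± 117 FPKM after vitamin D and 1348 ± 235 FPKM after vehicle in villi (SD, n = 7 and 6). In bulk tissue, fewer cells of a type and less RNA per cell cannot be told apart.

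In villi, the 10 genes were among the most abundant transcripts, and none of them changed past the threshold 4 h after vitamin D. Read per length, Slc5a1 and Anpep stood highest after vitamin D, at 2754 ± 406 and 2574 ± 698 FPKM after vitamin D and 2748 ± 628 and 1971 ± 444 FPKM after vehicle (SD, n = 7 and 6). Sis and Mgam lay within each other's spread, and after vehicle within that of Anpep too, at 1850 ± 99.3 and 1825 ± 283 FPKM after vitamin D and 2001 ± 575 and 1760 ± 576 FPKM after vehicle. Lct, Slc2a2 and Treh formed a middle group, with vitamin D means of 726 ± 202, 673 ± 84.1 and 451 ± 94.2 FPKM, of which Lct and Slc2a2 lay within their spread. Slc15a1, Dpp4 and Slc2a5 were lowest, with vitamin D means of 297 ± 60.7, 252 ± 37.2 and 183 ± 26.9 FPKM. Even Slc2a5 was more abundant than 95.5% of the 9706 genes tested.

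**Figure D1:**
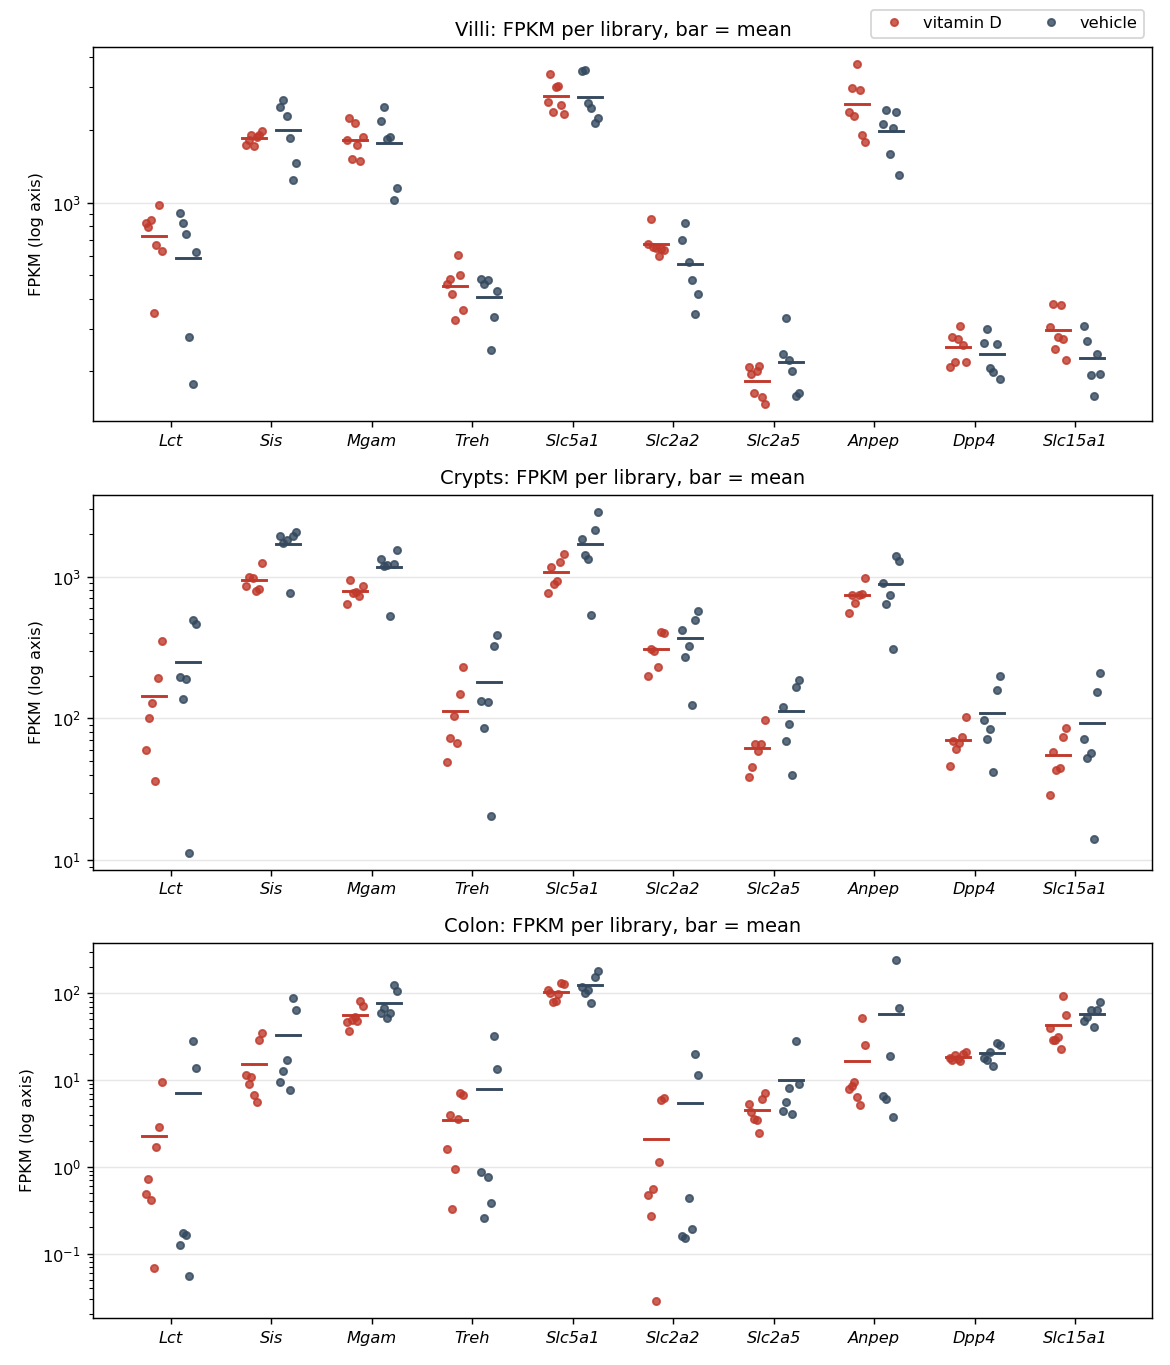
FPKM (log axis) of the 10 genes in each library of villi, crypts and colon, with vitamin D libraries in red on the left and vehicle libraries in dark blue on the right of each pair; the bars are group means. Groups overlapped for every gene in every tissue, and the highest and lowest Lct libraries lay 5.49-fold apart in villi, 43.5-fold in crypts and 522-fold in colon.

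Genes were called at an adjusted p under 0.05 in limma, after Benjamini-Hochberg adjustment over all genes tested in the tissue. The vitamin D response of villi held 0 of the 10 genes, against 2.47% of all genes tested, and the authors' deposited table also called 0 of 10, against 3.6% of its genes. At an unadjusted p under 0.05 limma held 1 of 10, against 12.2% of all genes. The median log2 difference of the 10 genes was 0.14, with 8 positive and 2 negative, against a median of -0.01 over all genes, of which 52.8% were negative. Column names with a number prefix, which the labels do not explain, marked 4 of the 13 villus libraries, vitamin D replicates 5 and 7 and vehicle replicates 5 and 6. Those vehicle libraries were the lowest of the 6 for Sis, Mgam, Slc5a1, Slc2a2 and Slc2a5 (share of all genes not given). In the plain-named villus libraries alone the median of the 10 was 0.04 with 4 negative. The values of the groups overlapped for all 10 genes in all 3 tissues, where 1.92% of all genes in villi, 1.75% in crypts and 0.867% in colon had groups without overlap.

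Slc15a1 lay nearest to the threshold in villi. The peptide transporter ran at 222, 278 and 380 FPKM after vitamin D and at 158, 215 and 308 FPKM after vehicle (lowest, median and highest library). The groups overlapped, although 2 of the 7 vitamin D libraries lay above all vehicle libraries. Its log2 difference was 0.40 ± 0.17 (SE; interval of 95% 0.05 to 0.76), with an adjusted p of 0.325 in limma, and 5 of 6 pairs of equal replicate number had the higher value after vitamin D.

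The surface peptidase Anpep was higher after vitamin D in 6 of 6 pairs of villus libraries. It ran at 1785, 2378 and 3769 FPKM after vitamin D and at 1297, 2075 and 2416 FPKM after vehicle. The highest 3 vitamin D libraries exceeded all vehicle libraries and the rest overlapped with them, and the log2 difference of 0.37 ± 0.19 had an adjusted p of 0.484 in limma. Dpp4, the other surface peptidase, differed by 0.10 ± 0.13 (adjusted p = 0.812 in limma), with an interval of 95% from -0.17 to 0.38.

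The disaccharidases of villi differed by less than the spread between libraries. Lct ran at 348, 789 and 973 FPKM after vitamin D and at 177, 681 and 908 FPKM after vehicle, overlapping over nearly their whole range (log2 difference 0.45 ± 0.37, limma adjusted p = 0.697). Sis was the tightest of the 10 genes after vitamin D, at 1717, 1870 and 1987 FPKM, all inside the vehicle range of 1242 to 2671 FPKM. The coefficient of variation of Sis was 5.36% after vitamin D and 28.7% after vehicle, and its log2 difference was -0.06 ± 0.16. Mgam and Treh differed by 0.11 ± 0.20 and 0.17 ± 0.18.

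Among the sugar transporters of villi, the interval for Slc5a1 was narrow. SGLT1 ran at 2319, 2606 and 3411 FPKM after vitamin D and at 2141, 2520 and 3546 FPKM after vehicle, so that the vehicle libraries enclosed all vitamin D libraries. The difference of 0.02 ± 0.15 had an interval of 95% from -0.30 to 0.34. Slc2a2 and Slc2a5 differed by 0.33 ± 0.18 and -0.23 ± 0.16 (limma adjusted p = 0.500 and 0.642), Slc2a5 being lower after vitamin D in 5 of 6 pairs.

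**Figure D2:**
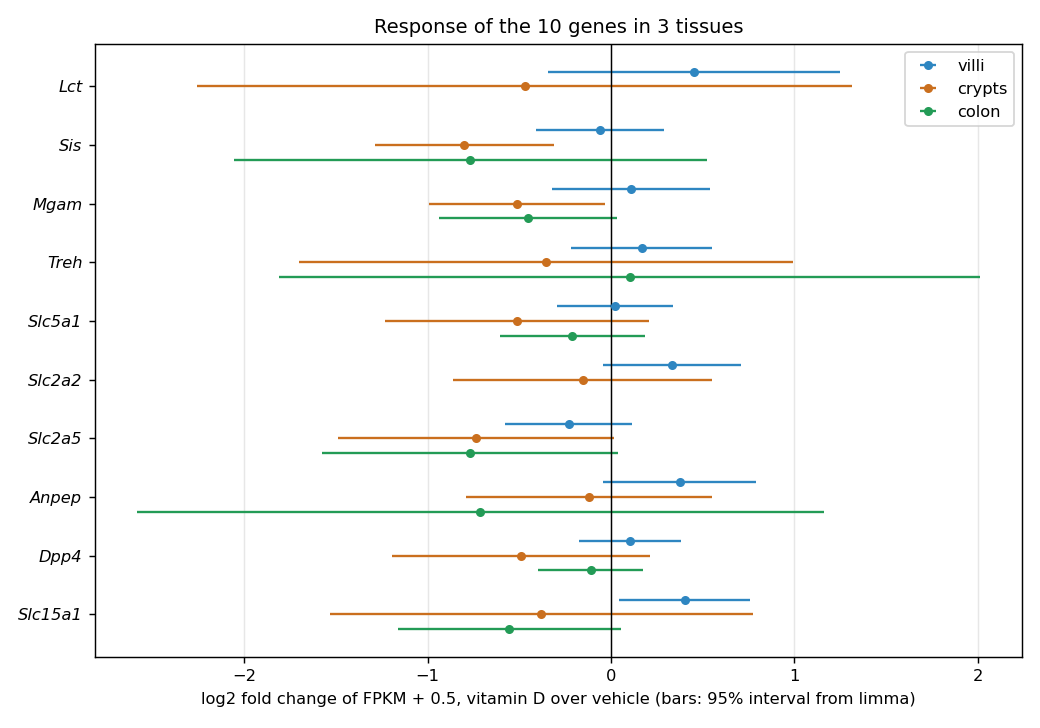
log2 fold change of FPKM + 0.5, vitamin D over vehicle, for each of the 10 genes in villi (blue), crypts (orange) and colon (green), with the interval of 95% from limma; Lct and Slc2a2 did not pass the colon filter. The 10 crypt values were all negative, with Sis the farthest from 0 at -0.80, and intervals were widest for Lct in crypts and for Treh and Anpep in colon.

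In crypts, all 10 genes had a lower mean after vitamin D, and the sucrase-isomaltase gene differed most. The median log2 difference of the 10 was -0.48, against -0.01 for all 10733 genes tested, and 10 of 10 were negative, against 52.4% of all genes. None was called by limma, against 1.46% of all genes; at an unadjusted p under 0.05 it held 2 of 10 (Sis and Mgam), against 15.3%. The authors' deposited table called 1 of 10 (Sis), against 4.28% of its genes. A fit with the replicate number as a block called 1 of 10 (Sis), against 4.14% of all genes. That block assumes that equal numbers are pairs, and 3 of 6 vitamin D libraries of crypts correlated best with their own number. Other enterocyte genes varied with the 10 between libraries, with values given after the single genes.

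Sis ran at 790, 913 and 1248 FPKM in vitamin D crypts and at 765, 1873 and 2068 FPKM in vehicle crypts (lowest, median and highest of 6 libraries each). Vehicle replicate 4 (765 FPKM) lay below every vitamin D library, and the other 5 vehicle libraries (1720 to 2068 FPKM) lay above every vitamin D library. Sis averaged 945 ± 170 FPKM after vitamin D and 1706 ± 476 FPKM after vehicle (SD, n = 6 each), and the log2 difference was -0.80 ± 0.23 (limma, adjusted p = 0.118). The replicate block gave an adjusted p of 0.0396, and the authors' deposited table gave -0.85 with an adjusted p of 0.00434.

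That call rested on which libraries were kept. Sis was lower after vitamin D in 5 of 6 pairs of equal number and higher in pair 4. The block fit without pair 4 gave Sis an adjusted p of 0.00322, and without any one of the other pairs the adjusted p lay between 0.100 and 0.131. Without vehicle replicate 4, and with no block, the difference was -1.02 (limma adjusted p = 0.00105) and 4 of the 10 genes (Sis, Mgam, Slc5a1 and Slc2a5) were called lower, against 4.18% of all genes.

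Mgam followed Sis at smaller size. It ran at 639, 776 and 941 FPKM in vitamin D crypts and at 525, 1221 and 1544 FPKM in vehicle crypts, again with vehicle replicate 4 alone below all vitamin D libraries. The log2 difference was -0.51 ± 0.22 (limma adjusted p = 0.3002), and 0.00378 was the adjusted p without vehicle replicate 4. The ratio of Sis to Mgam FPKM was 1.01 to 1.45 (median 1.19) in vitamin D crypts and 1.34 to 1.57 (median 1.45) in vehicle crypts, and 0.805 to 1.282 (median 1.07) and 0.990 to 1.27 (median 1.18) in the same groups of villi. Sis thus made up less of the pair after vitamin D in most crypt libraries, a description with no test. Mgam has a RefSeq pseudogene, Mgam2-ps, with no row in the tables, and reads of near-identical copies could have been counted to Mgam.

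Lct and Treh varied far more between crypt libraries than Sis did. Lct ran at 36.5, 114 and 349 FPKM in vitamin D crypts and at 11.3, 193 and 492.98 FPKM in vehicle crypts, a 43.5-fold range over 12 libraries, against a 2.70-fold range for Sis. The vehicle libraries enclosed all vitamin D libraries for both genes. The log2 differences of Lct and Treh, -0.47 ± 0.82 and -0.36 ± 0.62, were smaller than their standard errors.

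The sugar transporters of crypts were also lower on average after vitamin D. Slc2a5 ran at 38.4, 62.1 and 98.01 FPKM in vitamin D crypts and at 40.0, 106 and 187 FPKM in vehicle crypts. A single vitamin D library lay below all vehicle libraries and the others overlapped, with a log2 difference of -0.74 ± 0.35 (limma adjusted p = 0.339). Slc5a1 averaged 1076 ± 258 FPKM after vitamin D and 1685 ± 786 FPKM after vehicle, a difference of -0.51 ± 0.33 (limma adjusted p = 0.496). Without vehicle replicate 4 the adjusted p of Slc2a5 and Slc5a1 was 0.0464 and 0.0398. Slc2a2 differed by -0.15 ± 0.33.

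The peptide genes of crypts differed by less than the spread between libraries. Slc15a1 ran at 28.9, 51.2 and 86.2 FPKM in vitamin D crypts and at 14.0, 64.5 and 210 FPKM in vehicle crypts, the vehicle libraries lying on both sides of the vitamin D libraries. Its log2 difference was -0.38 ± 0.53, and those of Anpep and Dpp4 were -0.12 ± 0.31 and -0.49 ± 0.32. The ratio of Anpep to Slc5a1 FPKM was 0.591 to 0.791 in vitamin D crypts and 0.451 to 0.660 in vehicle crypts.

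The level of the 10 genes in a crypt library went with that of other enterocyte genes. The list of 12 general enterocyte markers, among them the fatty acid binding protein genes Fabp1 and Fabp2, the apolipoprotein gene Apoa1 and the lipoprotein assembly gene Mttp, had 11 members in the tables, none at 0 throughout the crypt libraries. Their summed level was 7693 to 35648 FPKM in vitamin D crypts (median 13687) and 6511 to 58016 FPKM in vehicle crypts (median 21135), lowest in vehicle replicate 4 and highest in vehicle replicates 5 and 6. Of the 11, 9 were lower and 2 higher on average after vitamin D (median log2 difference -0.62), with 0 called by limma and 0 at an unadjusted p under 0.05. Stem and cycling cell markers summed to 525 to 654 FPKM in vitamin D crypts and 453 to 718 FPKM in vehicle crypts, and vehicle replicate 4 was the highest of all 12. Paneth cell markers had 8 of 8 tested genes positive (median 0.27), with 0 called by limma and 0 at an unadjusted p under 0.05.

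**Figure D3:**
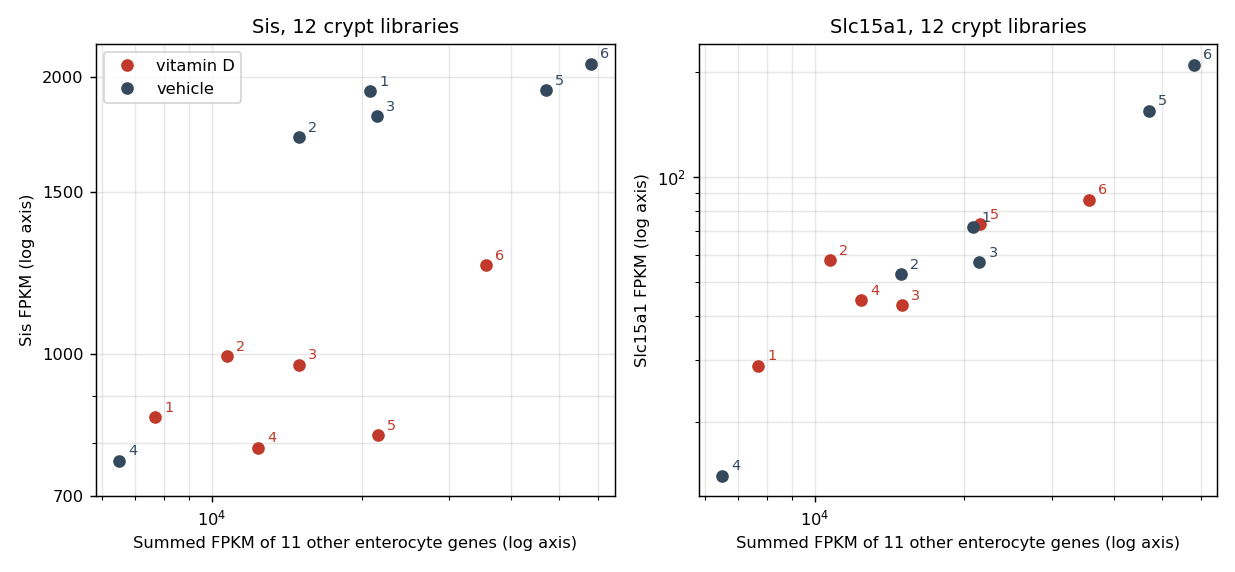
FPKM of Sis (left) and Slc15a1 (right) against the summed FPKM of 11 other enterocyte genes in the 12 crypt libraries, all on log axes; red points are vitamin D, dark blue points vehicle, and the numbers are replicate numbers. For Sis the vitamin D libraries lie below the vehicle libraries of a like enterocyte level, other than vehicle replicate 4, and for Slc15a1 both groups lie along 1 band.

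The enterocyte level of each library was also taken as the mean log2(FPKM + 0.5) of the markers. With that mean as a covariate, the Sis difference was -0.66 and that of Slc2a5 was -0.47 (limma adjusted p = 0.0215 and 0.0214). These were the 2 of 10 genes called, against 4.38% of all genes, and the members' median became -0.11 with 5 of 10 negative. Without vehicle replicates 5 and 6 together, the median was 0.07, 5 of 10 were negative and none was called, Sis at -0.65 (limma adjusted p = 0.368). The sign of the median changed when those 2 vehicle libraries were left out and the vitamin D libraries of the same numbers were kept. In the 8 plain-named libraries alone, which leave out both vehicle and both vitamin D libraries of those numbers, the median was -0.25 with 8 of 10 negative. Sis had a negative sign in all 28 alternatives run in crypts, between -1.02 and -0.65. Several of these could not move the estimate. With groups of equal size, the replicate blocks and column name style gave the same -0.80 as the main fit. Most others left out libraries of the same set, so the count of signs is a description.

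Correlations between genes, here and for colon, used deviations of log2 values from the mean of each treatment group. The vitamin D difference was thus taken out. Across the 12 crypt libraries the 10 genes ran nearly in parallel: the 45 pairwise correlations had a median of 0.93 (range 0.77 to 0.98). In the 13 villus libraries the median was 0.54 (range -0.41 to 0.88). In villi the gene whose pattern was most like the mean of the 10 was Myo1a (r = 0.975 among 4864 genes), the motor that ties the microvillus core to its membrane. Libraries of a tissue share their preparation, so these are descriptions with no test.

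In colon, the 10 genes were low and 4 libraries stood apart. Lct and Slc2a2 did not reach 1 FPKM in 6 libraries and were left out of the test, and of the other 8 none was called, against 0.823% of all 11540 genes tested; the authors' deposited table called 0 of 10, against 1.64%. The median log2 difference of the 8 was -0.50, against 0.00 for all genes, with 7 negative and 1 positive, where 50% of all genes were negative. At an unadjusted p under 0.05 limma held 0 of 8, against 8.05% of all genes.

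Number-prefixed column names also marked 4 of the 13 colon libraries, vitamin D replicates 6 and 7 and vehicle replicates 5 and 6. Lct ran at 2.85 to 28.6 FPKM in those 4 and at 0.0547 to 1.69 FPKM in the other 9, the lowest value resting on about 5 reads. Treh (6.70 to 31.9 against 0.259 to 3.94 FPKM), Slc2a2 (5.92 to 20.0 against 0.0284 to 1.14 FPKM) and Anpep (25.1 to 242 against 3.78 to 19.0 FPKM) likewise showed no overlap between the 4 and the 9. Sis, Mgam and Slc5a1 also showed no overlap, and Slc2a5, Dpp4 and Slc15a1 overlapped. The share of all genes that split this way is not given, so the split cannot be called particular to these genes. The summed enterocyte markers were 2376 to 4547 FPKM in the 4 and 766 to 2137 FPKM in the 9. A fit with their mean log2(FPKM + 0.5), not their sum, as a covariate left 0 of 8 called and a median of -0.48. Summed stroma markers were lower in the 4, at 14.0 to 22.7 FPKM, than in the 9, at 30.9 to 4365 FPKM. Paneth cell markers, with 9 of 10 in the tables and none at 0 throughout, summed to 94.2 to 535 FPKM after vitamin D and 144 to 2659 FPKM after vehicle; the highest was vehicle replicate 5, which was also the highest for Anpep and Slc2a5, and the next was at 803 FPKM. Their part in the result was not tested. The genes most like the mean of the 8 across the 13 colon libraries were Mttp (r = 0.979 among 6216 genes) and Rbp2 (r = 0.966), a retinol binding protein gene, a description with no test.

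**Figure D4:**
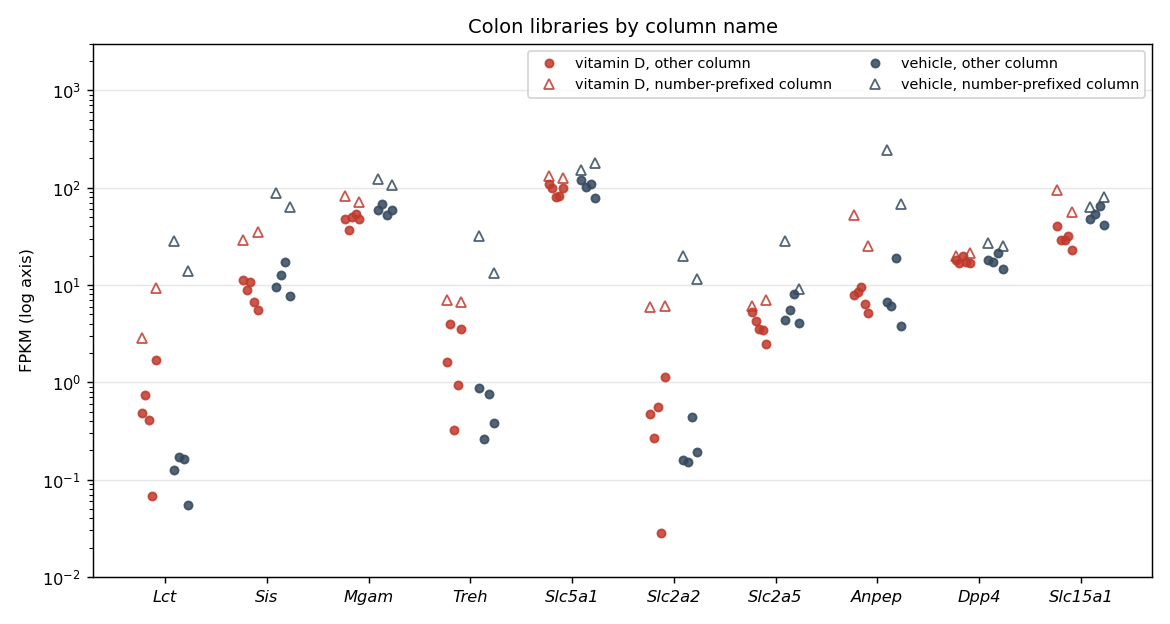
FPKM (log axis) of the 10 genes in the 13 colon libraries; red is vitamin D (left), dark blue is vehicle (right), open triangles are the 4 libraries with number-prefixed column names and filled circles the other 9. The triangles lie above all circles for 7 genes (Lct, Sis, Mgam, Treh, Slc5a1, Slc2a2 and Anpep) and overlap them for Slc2a5, Dpp4 and Slc15a1. The share of all genes that split this way is not given.

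Slc15a1, Mgam and Slc2a5 lay nearest to a difference in colon. Slc15a1 ran at 22.7, 31.7 and 94.3 FPKM after vitamin D and at 40.9, 58.6 and 79.5 FPKM after vehicle. The lowest 5 of the 7 vitamin D libraries lay below all vehicle libraries and 1 lay above them all, with a log2 difference of -0.55 ± 0.28 (limma adjusted p = 0.678). Mgam ran at 37.1, 49.9 and 81.6 FPKM after vitamin D and at 52.0, 63.8 and 124 FPKM after vehicle. The groups overlapped (-0.46 ± 0.23, limma adjusted p = 0.659).

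The remaining colon differences had wide errors, other than those of Slc5a1 and Dpp4. Slc2a5 differed by -0.77 ± 0.38 (limma adjusted p = 0.652), Sis by -0.77 ± 0.60 and Anpep by -0.71 ± 0.87. Treh differed by 0.10 ± 0.89 in limma and by -1.20 ± 0.95 in the authors' deposited table. Its mean was 3.44 FPKM after vitamin D and 7.92 FPKM after vehicle, so its sign depended on the scale. Slc5a1 and Dpp4, the steadiest across libraries, differed by -0.21 ± 0.18 and -0.11 ± 0.13 in limma. Without the 4 number-prefixed libraries the median of the 8 was -0.22, with 6 negative and 0 called.

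The difference between the responses of 2 tissues was tested in 1 fit over all 38 libraries. For villi minus crypts limma called 0 of the 10 genes, against 0.0316% of 9497 genes; for villi minus colon 0 of 8, against 0.499% of 9425; and for crypts minus colon 0 of 8, against 0.0771% of 10378. At an unadjusted p under 0.05 it held 0 members in each, against 6.02%, 8.39% and 4.24% of all genes. Mgam had the smallest p between villi and crypts, with a difference of 0.62 ± 0.32 (interval of 95% -0.03 to 1.277, limma adjusted p = 0.732), followed by Dpp4 at 0.60 ± 0.31. Between villi and colon, Slc15a1 (0.96 ± 0.52, limma adjusted p = 0.620) and Mgam (0.56 ± 0.32, limma adjusted p = 0.629) had the smallest.

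All 10 genes were most abundant in villi. By mean FPKM, crypts lay nearer to villi in vehicle than in vitamin D libraries for each of the 10. The test of that change, the villi minus crypts difference of responses, called 0 of the 10 (smallest limma adjusted p = 0.732). In the authors' deposited tables, which compare tissues among vitamin D libraries, all 10 were lower in crypts than in villi at an adjusted p under 0.05, against 30.4% of all genes. Slc15a1 had the steepest difference, with 55.7 FPKM in crypts and 297 FPKM in villi, a log2 value of -2.90 ± 0.23 in the authors' deposited table. Lct (-2.81 ± 0.41), Treh (-2.49 ± 0.31), Dpp4 (-2.33 ± 0.16) and Anpep (-2.30 ± 0.18) followed in the authors' deposited table. Sis was the shallowest, with 945 FPKM in crypts and 1850 FPKM in villi (-1.46 ± 0.10 in the authors' deposited table), next to Slc2a2 (-1.62 ± 0.17) and Mgam (-1.70 ± 0.12). Neighbours in this order differed by less than the sum of their standard errors, while Sis and Slc15a1, at its ends, did not. The median of the 10 was -2.17, against -0.02 for all genes of that table. By mean FPKM, crypts held 19.9% of the villus level of Lct in vitamin D libraries and 42.0% in vehicle libraries. Slc15a1 stood at 18.7% and 41.3% and Sis at 51.1% and 85.3% in the same groups. Sis averaged 1706 ± 476 FPKM in vehicle crypts and 2001 ± 575 FPKM in vehicle villi. These shares and levels come from separately normalised tables and were not themselves tested. Among vitamin D libraries the FPKM ratios of crypts over villi lay 0.49 above the authors' log2 values (median over genes). On the authors' scale the vitamin D shares of crypts are thus smaller, and no such scale was used for vehicle.

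**Figure D5:**
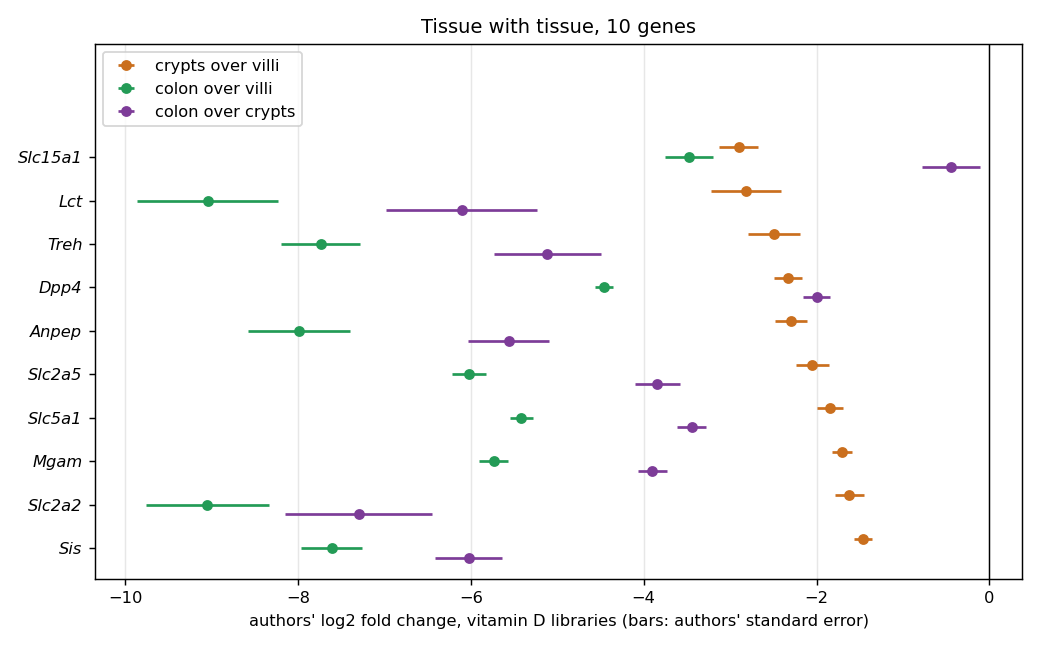
The authors' log2 fold changes among vitamin D libraries for the 10 genes, with their standard errors: crypts over villi (orange), colon over villi (green) and colon over crypts (purple). Colon over villi spread from -3.48 (Slc15a1) to -9.05 (Slc2a2), and Slc15a1 alone had a colon over crypts value near 0 (-0.44).

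Colon was lower than villi for all 10 genes in the authors' deposited table, against 27% of all genes. Slc2a2 and Lct showed the largest differences (-9.05 ± 0.72 and -9.04 ± 0.82 in the authors' deposited table), with means of 2.07 and 2.24 FPKM in colon and 673 and 726 FPKM in villi. Anpep (-7.99), Treh (-7.74) and Sis (-7.61) followed, and Slc5a1 and Dpp4 were at -5.42 and -4.46 in the authors' deposited table. Slc15a1 kept the largest share of its villus level, at -3.48 ± 0.28 (11.1-fold lower) in the authors' deposited table. By mean FPKM, from separately normalised tables, the share was larger at 14.6%, with 43.3 FPKM in colon and 297 FPKM in villi. The vitamin D means of colon include the 2 number-prefixed libraries. These were the highest of the 7 for all 10 genes (share of all genes not given). Without them the colon mean was 0.677 FPKM for Lct, 0.492 FPKM for Slc2a2, 7.51 FPKM for Anpep and 30.5 ± 6.27 FPKM for Slc15a1 (n = 5).

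Against crypts, 9 of the 10 genes were lower in colon in the authors' deposited table, against 23.9% of all genes. The exception was Slc15a1, with 43.3 FPKM in colon and 55.7 FPKM in crypts (-0.44 ± 0.34, adjusted p = 0.262 in the authors' deposited table); the colon mean of 30.5 FPKM without the number-prefixed libraries lay further below crypts. Dpp4 was next at -1.998 ± 0.16, and Slc2a2 was farthest at -7.30 ± 0.85 in that table. In vehicle libraries, for which no such table was used, Slc15a1 averaged 58.4 ± 13.8 FPKM in colon (n = 6) and 93.4 ± 73.5 FPKM in crypts (SD, n = 6), levels from separately normalised tables with no test.

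Genes of neighbouring steps were counted on lists in the same fits. In villi 3 of the 81 genes tested on the 7 lists were called by limma (3.70%), against 2.47% of all genes. Of 10 tested amino acid transporters 2 rose: Slc36a1, a proton-coupled transporter of small amino acids, to 92.5 ± 5.99 FPKM after vitamin D, against 52.0 ± 8.12 FPKM after vehicle (0.84 ± 0.10, limma adjusted p = 0.000367), and Slc43a2, a carrier of large neutral amino acids, to 207 ± 34.7 FPKM, against 127 ± 31.8 FPKM after vehicle (0.72 ± 0.16, limma adjusted p = 0.0222). Of 8 ion partners of nutrient uptake 1 rose, the sodium-proton exchanger gene Slc9a2 (0.39 ± 0.09, limma adjusted p = 0.0401). Other peptidases (13 tested), other sugar transporters (8), fructose and glucose enzymes (12), brush border structure genes (14) and transcription factors (16) held 0 genes called by limma in villi, and 8 of 63 at an unadjusted p under 0.05 (12.7%, against 12.2% of all genes), with median log2 differences of 0.07, 0.05, -0.12, 0.06 and 0.09.

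In crypts, the transcription factor list held 1 called gene of 16, and the 7 lists together 1 of 80 (1.25%), against 1.46% of all genes. Gata4, a factor of the proximal small intestine, rose to 81.0 ± 6.34 FPKM after vitamin D, against 59.5 ± 8.69 FPKM after vehicle (0.45 ± 0.10, limma adjusted p = 0.0471). Cdx2 and Hnf4a differed by 0.19 ± 0.12 and 0.00 ± 0.16. The other peptidases (13 tested), amino acid transporters (10), other sugar transporters (8), fructose and glucose enzymes (11), ion partners (9) and brush border structure genes (13) held 0 genes called by limma, and 10 of 64 at an unadjusted p under 0.05 (15.6%, against 15.3% of all genes), with median log2 differences of -0.47, -0.32, -0.38, -0.34, -0.05 and -0.32. In colon the same 7 lists held 0 genes called by limma of 76 tested, against 0.823% of all genes, and 11 at an unadjusted p under 0.05 (14.5%, against 8.05% of all genes).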

How the data were processed

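RNA-seq levels were taken from 3 tables, 1 per tissue, in which the authors deposited FPKM for 21441 genes, per the file headers. Tables of the authors' own comparisons, deposited with p-values, a test score, a mean signal and log2 fold changes with standard errors, per the file headers, were used for differences between tissues and beside limma's values; in the tissue comparisons the deposited log2 value is the second tissue named over the first, checked against the FPKM ratios (r over genes 0.999 to 1.000). The tools named are kallisto 0.45.0, DESeq2 and DESeq 1.28.1, with build mm9, per the submitters' processing notes, which tie no tool to a value. Between tissues the FPKM ratios were offset from the authors' values by 0.49 (crypts over villi), 0.70 (colon over villi) and 0.08 (colon over crypts) on the log2 scale, so no test of FPKM was made across tables except of differences of responses.

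Samples were grouped by their titles. Vitamin D was compared with vehicle within each tissue by limma 3.58.1 in R 4.3.3 (lmFit and a trended eBayes), using log2(FPKM + 0.5) of the genes that reached an FPKM of 1 in 6 libraries, Benjamini-Hochberg adjustment over all of them and a threshold of 0.05; a log2 difference on this scale understates the change of low genes. Depth was read from the low values, of which 76.8% to 91.6% per library were within 0.05 of a whole number of reads, and no count model was run. No pair of the 102 pairs of libraries within a group was identical or within sampling noise. The members, the gene lists and the rule for named genes (all members; in the other lists, the called genes and the regulators whose motifs were searched; the genes most like the members' mean, by correlation among genes at 10 FPKM or more) were chosen with earlier results of these data known. Some genes that this rule names are not reported here. Replicate numbers in the titles paired the libraries of villi and crypts, since the deviations of same-numbered libraries correlated over 0.1 in all 6 pairs (0.102 to 0.465 in villi, 0.119 to 0.545 in crypts). Only 4 of 6 vitamin D libraries in villi and 3 of 6 in crypts correlated best with their own number. The pairing is therefore an assumption that these values do not settle. Alternatives were other pseudocounts, no filter, rescaling, the replicate block, column name style, an enterocyte covariate and leaving out libraries. Promoters came from RefSeq's GRCm38.p6 and were used for sequence only.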

Additional observations from a re-analysis of the deposited data

Results flagged for a closer look

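A library stood far from the rest of its group (Dixon's test at 95%, with 60 groups of 6 or 7 libraries examined) for 7 values, and chance flags about 1 in 20 groups. In crypts, vehicle replicate 4 was low for Sis (765 FPKM, nearest library 1720 FPKM) and for Mgam (525 FPKM, nearest library 1187 FPKM). In villi, vitamin D replicate 2 was high for Slc2a2 (857 FPKM, nearest library 673 FPKM). In colon, vehicle replicate 5 was high for Anpep (242 FPKM, nearest library 67.4 FPKM) and for Slc2a5 (28.4 FPKM, nearest library 9.02 FPKM). Also in colon, vitamin D replicate 6 was high for Anpep (52.6 FPKM, nearest library 25.1 FPKM) and vitamin D replicate 7 for Lct (9.42 FPKM, nearest library 2.85 FPKM). The 3 colon libraries have number-prefixed column names, and in vehicle replicate 5 the Paneth cell markers summed to 2659 FPKM, against 144 to 803 FPKM in the other vehicle libraries.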

How the results depend on the processing

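No member was called in villi or colon under any alternative run. All genes called in villi were 97 with the plain-named libraries alone. In crypts the replicate block, by titles or by column names, called 1 member (Sis) and 444 genes, the enterocyte covariate 2 members and 470 genes, column name style 391 genes, the plain-named libraries alone 84 genes, and leaving out vehicle replicates 5 and 6 together 103 genes. Leaving out 1 library or pair gave 0 to 8 members and 98 to 2251 genes in crypts (107 without vehicle replicate 1): 4 members and 1065 genes without vehicle replicate 4, and 8 members and 2251 genes in the block without pair 4. Of the alternatives, the block without single pairs, the omission of vehicle replicates 5 and 6 and that of the number-prefixed colon libraries were chosen after seeing the data. In colon the block by title numbers called 147 genes, and leaving out 1 library gave 66 to 141; there, 3 of 6 pairs correlated over 0.1 (lowest 0.0569), so the numbers were not taken as pairs, and 3 of 6 vitamin D libraries correlated best with their own number. The block changed no call of a member other than Sis.

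Signs changed, with no call, as follows. With plain-named libraries alone, Mgam (-0.13) and Slc5a1 (-0.080) in villi, Anpep (0.15) and Slc15a1 (0.015) in crypts, and Anpep (0.10) and Dpp4 (0.032) in colon. With the enterocyte covariate, Treh (-0.027) and Slc5a1 (-0.063) in villi, and Lct (0.15), Treh (0.14), Slc2a2 (0.093), Anpep (0.11) and Slc15a1 (0.030) in crypts. Without vehicle replicates 5 and 6 of crypts, Lct (0.34), Treh (0.39), Slc2a2 (0.19), Anpep (0.27) and Slc15a1 (0.32). In colon, Treh with a pseudocount of 1 (-0.019), the title block (-0.11) and column name style (-0.17), and Dpp4 without the number-prefixed libraries (0.013). In the crypt block, Slc2a2 without pair 1 (0.029) and Anpep without pair 5 (0.037). Leaving out 1 library gave, in villi, -0.19 to 0.034 for Sis, -0.033 to 0.22 for Mgam and -0.046 to 0.1 for Slc5a1; in crypts, -0.43 to 0.0062 for Slc2a2 and -0.39 to 0.047 for Anpep; and in colon, -0.28 to 0.80 for Treh and -1.16 to 0.0063 for Anpep. Of the differences of response between tissues, single values are given for Mgam and Dpp4 (villi minus crypts) and Mgam and Slc15a1 (villi minus colon), which were chosen by their p after the values were seen. Over all members tested, the sign changed in 0 of 310 recomputed values for villi minus crypts, 11 of 256 for villi minus colon (Dpp4, Sis and Treh) and 33 of 248 for crypts minus colon (Anpep, Mgam, Sis, Slc15a1 and Slc2a5), and 0 of these values were called by limma. The causes were not tested. Colon members at low FPKM rest on few reads.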

Other observations

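Outside the absorption genes, 1 of 5 tested immune markers was called in crypts, against 1.46% of all genes: Cd79b, a B cell receptor component, averaged 5.63 ± 2.36 FPKM after vitamin D and 0.678 ± 0.493 FPKM after vehicle (SD, n = 6 each; 2.41 ± 0.35 on the log2(FPKM + 0.5) scale, limma adjusted p = 0.00276). The list as a whole did not move with it: 3 of the 5 were positive and 2 negative (median log2 difference 0.07). Cd79b was the only 1 of the 5 with an unadjusted p under 0.05, against 15.3% of all genes. In colon, stroma markers summed to 17.2 to 4365 FPKM after vitamin D and 14.0 to 292 FPKM after vehicle, with 9 of 9 tested genes positive and 0 called by limma, also at an unadjusted p under 0.05. The highest sums were those of vitamin D replicates 1 and 2 (1460 and 4365 FPKM). The number-prefixed libraries held 14.0 to 22.7 FPKM and all others 30.9 FPKM or more.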
